A study of Mus musculus with 4 samples.

Results

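Lamina-associated domains (LADs) are stretches of the genome in contact with the nuclear lamina, and the stretches between 2 neighboring LADs are referred to here as gaps. A gap of the WT hepatocyte genome was counted as bridged when a single LAD of the *Tm7sf2* KO ran across the whole of it and on into the WT LADs at both of its sides. These gaps were chosen by the LAD calls themselves, as KO-only differential regions (DRs) that lay within a KO LAD and shared neither of its ends, so the KO contact that defines them is a description and not a result. On 17 autosomes the rule found 1417 bridged gaps out of the 8208 KO-only DRs on all chromosomes, or 20.4% of the 6952 KO-only DRs on the same autosomes. Chromosomes 10, 19, X and Y were left out by the rule, and with them the number was 1749.

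The libraries came from primary hepatocytes of WT mice and of *Tm7sf2*-/- mice, aged 12 to 16 weeks, which lack NET47, a sterol reductase with a pool in the nuclear envelope (NE). Freshly isolated cells of both genotypes, kept in medium with dexamethasone, insulin and EGF, were transduced for 24 h with lentivirus carrying either a LaminB1-Dam fusion or the Dam methylase alone, and DNA of 4 mice was pooled for each of the 4 libraries. Each genotype thus had 1 pooled LaminB1-Dam library with its Dam control, there were no replicates, and no test between the genotypes could be made. The LAD lists hold intervals without a signal or a read count, so the depth behind a region is unknown from them. The KO libraries were sequenced less deeply than the WT libraries, and the effects of depth and of genotype on the calls cannot be told apart. A change in the LaminB1-Dam library and a change in the Dam control cannot be told apart either, because the lists hold only the calls made on their ratio. Only a part of the plated hepatocytes takes up the virus, and the hepatocyte identity of the cells could not be checked here, since DamID measures no transcripts.

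In mammals, LADs are mostly poor in genes, rich in A and T and low in transcription, and they sit at the nuclear envelope beside the lamin filaments. Gaps between LADs often hold active promoters and the genes they drive. DamID reads this contact through a bacterial methylase tethered to LaminB1, which marks the adenine of GATC sites near the lamina, so that a border between a LAD and a gap can only be placed at such a site.

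Borders of the 3 longest bridged gaps are printed here as 60 bases of the plus strand of mm9, with GATC in capitals, to show what resolution these intervals have. The border site filled bases 29 to 32 of each window. All 2834 borders of the 1417 bridged gaps carried a GATC at this place, against 13.2% of 60-base windows tiled over the same autosomes that held a GATC anywhere, and GATC reads the same on both strands.
Antxr2 gap, left border, chr5:98312935-98312994: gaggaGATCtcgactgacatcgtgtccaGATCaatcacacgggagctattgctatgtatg
Antxr2 gap, right border, chr5:98474642-98474701: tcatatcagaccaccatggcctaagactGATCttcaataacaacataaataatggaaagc
Arnt2 gap, left border, chr7:91548587-91548646: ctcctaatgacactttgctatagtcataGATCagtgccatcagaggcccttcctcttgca
Arnt2 gap, right border, chr7:91691566-91691625: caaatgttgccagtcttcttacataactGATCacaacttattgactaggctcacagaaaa
Med12l gap, left border, chr3:58803559-58803618: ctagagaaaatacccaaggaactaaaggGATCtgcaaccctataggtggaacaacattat
Med12l gap, right border, chr3:58927540-58927599: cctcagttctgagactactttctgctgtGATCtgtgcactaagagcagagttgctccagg

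Promoters are shown for 6 genes whose transcription start lay in a bridged gap, as the 250 bases before the start on the strand of the gene, with each CG dinucleotide in capitals. *Antxr2* and *Arnt2* start in the 2 longest bridged gaps and were picked for display after their values had been seen. *Apcs* and *Crp*, which code for plasma pentraxins made by the liver, and the olfactory receptor genes *Olfr94* and *Olfr95* lay wholly in bridged gaps and were taken by the rule for named genes. CG was counted without overlap and reads the same on both strands.
Antxr2, chr5:98459982-98460231, strand -: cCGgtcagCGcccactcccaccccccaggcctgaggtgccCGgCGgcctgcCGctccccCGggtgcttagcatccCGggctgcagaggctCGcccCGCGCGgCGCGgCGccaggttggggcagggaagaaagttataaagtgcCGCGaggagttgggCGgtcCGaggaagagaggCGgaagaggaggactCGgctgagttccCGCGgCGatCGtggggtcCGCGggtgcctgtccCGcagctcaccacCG
Arnt2, chr7:91558470-91558719, strand -: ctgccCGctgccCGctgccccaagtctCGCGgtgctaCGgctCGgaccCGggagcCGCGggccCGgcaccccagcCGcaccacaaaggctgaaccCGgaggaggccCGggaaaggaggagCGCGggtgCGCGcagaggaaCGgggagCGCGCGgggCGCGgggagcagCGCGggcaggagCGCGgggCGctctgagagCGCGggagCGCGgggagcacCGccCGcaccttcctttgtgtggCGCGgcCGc
Apcs, chr1:174825186-174825435, strand -: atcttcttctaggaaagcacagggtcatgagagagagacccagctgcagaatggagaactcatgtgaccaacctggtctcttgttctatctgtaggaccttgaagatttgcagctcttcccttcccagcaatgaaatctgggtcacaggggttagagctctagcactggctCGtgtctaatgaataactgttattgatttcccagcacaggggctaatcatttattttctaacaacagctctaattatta
Crp, chr1:174627937-174628186, strand +: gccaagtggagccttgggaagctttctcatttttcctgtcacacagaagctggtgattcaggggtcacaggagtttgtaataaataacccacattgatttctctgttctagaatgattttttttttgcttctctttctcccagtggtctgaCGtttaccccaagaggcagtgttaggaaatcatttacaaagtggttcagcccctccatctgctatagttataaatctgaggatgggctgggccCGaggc
Olfr94, chr17:37334957-37335206, strand -: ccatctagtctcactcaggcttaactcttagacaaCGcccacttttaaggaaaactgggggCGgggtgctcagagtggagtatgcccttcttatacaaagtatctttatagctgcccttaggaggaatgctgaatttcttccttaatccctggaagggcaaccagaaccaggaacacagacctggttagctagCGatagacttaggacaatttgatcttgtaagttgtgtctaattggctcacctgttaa
Olfr95, chr17:37348813-37349062, strand -: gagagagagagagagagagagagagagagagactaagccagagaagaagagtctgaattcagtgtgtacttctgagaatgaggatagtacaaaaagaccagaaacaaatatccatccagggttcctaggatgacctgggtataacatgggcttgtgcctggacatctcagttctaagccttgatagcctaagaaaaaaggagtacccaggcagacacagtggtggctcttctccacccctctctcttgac
The promoters of *Antxr2*, which codes for a receptor of extracellular matrix proteins, and of *Arnt2*, a bHLH-PAS transcription factor, held 28 and 37 CG dinucleotides. Those of *Apcs*, *Crp* and *Olfr94* held 1, 2 and 3, and that of *Olfr95* held none. Over the 559 protein-coding starts in bridged gaps the median was 12 CG in these 250 bases (quartiles 6 and 22), against 9 over all 19649 protein-coding genes (quartiles 3 and 18). In the WT LADs at the sides of the gaps the median was 2 over 1452 starts. No CG at all was found before 3.22% of the starts in bridged gaps and before 7.36% of all starts.

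A cluster of microRNA genes is shown because it lay within a bridged gap of 109.5 kb, one of the longest. Bases are given as mature RNA from RefSeq (GRCm38.p6 release, sequences only), with the seed at bases 2 to 8 in capitals.
miR-302b-3p: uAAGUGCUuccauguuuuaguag
miR-302d-3p: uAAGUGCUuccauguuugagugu
miR-302c-3p: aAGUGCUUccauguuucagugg
miR-302a-5p: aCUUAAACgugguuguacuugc
miR-367-3p: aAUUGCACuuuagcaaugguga
miR-218-5p: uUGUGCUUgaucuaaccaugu
*Mir302b*, *Mir302c*, *Mir302a*, *Mir302d* and *Mir367*, a cluster known from pluripotent cells, lie between chr3:127248146 and 127248725 in an intron of *Larp7* on the opposite strand. The 3′ arms of miR-302b and miR-302d share the seed AAGUGCU, while miR-302c has AGUGCUU and miR-367 has AUUGCAC in the same place. *Mir218-2*, in an intron of *Slit3* on chromosome 11, lay in a bridged gap of 27.2 kb and has the seed UGUGCUU. In all, 14 of the 1373 annotated microRNA genes of these autosomes lay in 10 bridged gaps, or 1.02%, close to the 1.25% of the sequence of these autosomes that bridged gaps hold. RefSeq gave mature arms for 6 of the 14. These genes were named after their values had been seen.

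Bridged gaps were short. Their median length was 14.8 kb (quartiles 11.9 and 23.4 kb), 51.0% measured 10 to 15 kb, and only 7 reached 100 kb. Together they held 28.4 Mb, which is 17.8% of the bases of the KO-only DRs and 1.25% of the 17 autosomes. The longest member measured 161.7 kb and the shortest 10,004 bp. The DR lists hold no stretch under 10 kb, and this threshold fell in the most populated part of the range: 212 members measured 10,004 to 10,999 bp, while a further 600 gaps of 8001 to 9999 bp were run over by a KO LAD in the same way and stayed off the list.

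Of the 5638 WT gaps of at least 10 kb on these autosomes, 1417 were bridged (25.1%), 3286 were covered in part by KO LADs (58.3%) and 935 held no base of a KO LAD (16.6%). The share bridged is the contrast that chose the members, and nothing is read from it. It fell with length, from 51.3% of gaps of 10 to 15 kb (95% Wilson interval 48.7 to 53.9) to 19.9% at 30 to 50 kb (17.2 to 22.9), 5.93% at 50 to 100 kb (4.49 to 7.80) and 0.526% at 100 kb and above (0.255 to 1.08). These intervals and those below cover counting error only. Gaps with no KO LAD made up 22.4% of the shortest class and 5.63% of the longest. The reverse step had a like dependence on length: of 11219 gaps between KO LADs, 4199 lay within a single WT LAD (37.4%), from 70.0% at 10 to 15 kb to 0.161% at 100 kb and above. A longer gap is harder for a single LAD to span, so the fall with length follows in part from the rule in both directions.

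**Figure D1:**
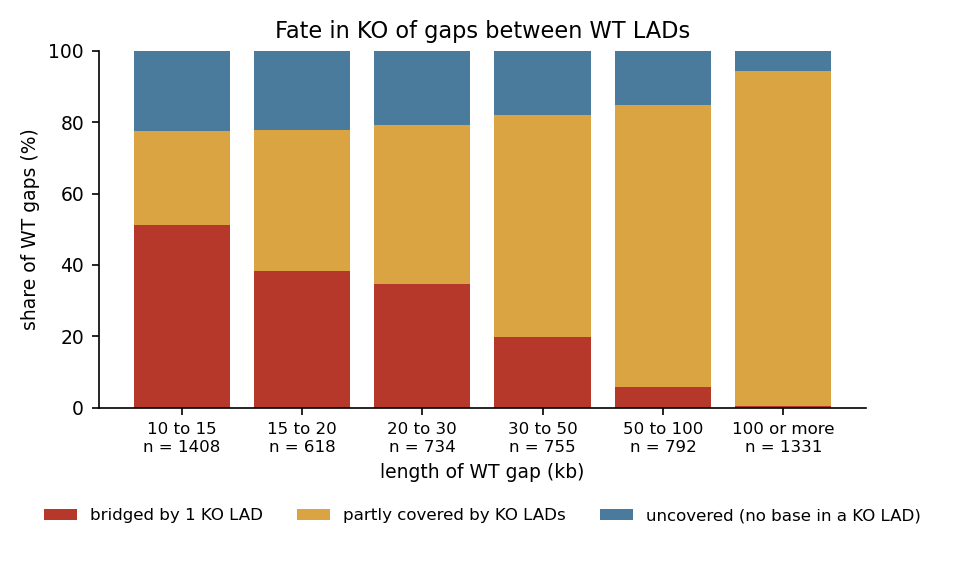
Share of WT gaps in each length class (x axis, kb) that were bridged by 1 KO LAD, partly covered or uncovered (stacked bars, percent of the gaps counted under each bar). The bridged share fell from 51.3% of gaps of 10 to 15 kb to 0.526% of gaps of 100 kb and more.

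All 17 autosomes held bridged gaps, in numbers from 53 on chromosome 16 to 144 on chromosome 3. The share of WT gaps bridged ranged from 18.1% on chromosome 7 (14.4 to 22.6) to 36.0% on chromosome 3 (31.4 to 40.8). These intervals cover only the counting of gaps in 1 library pair, and that of every other autosome overlapped with that of chromosome 3 or chromosome 7. Chromosome 3 was also the densest, with 9.02 bridged gaps per 10 Mb against 4.0 on chromosome 7, and carried the most bridged bases with 3.44 Mb. In windows of 5 Mb, 90 of 466 held no bridged gap and 33 held 8 or more. The fullest windows had 15 each, at 80 to 85 Mb of chromosome 4 and 90 to 95 Mb of chromosome 13. For each stretch of at least 10 kb that the KO opened within a WT LAD there were between 0.204 (chromosome 16) and 0.567 (chromosome 3) bridged gaps, so that openings outnumbered bridged gaps on every autosome.

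**Figure D2:**
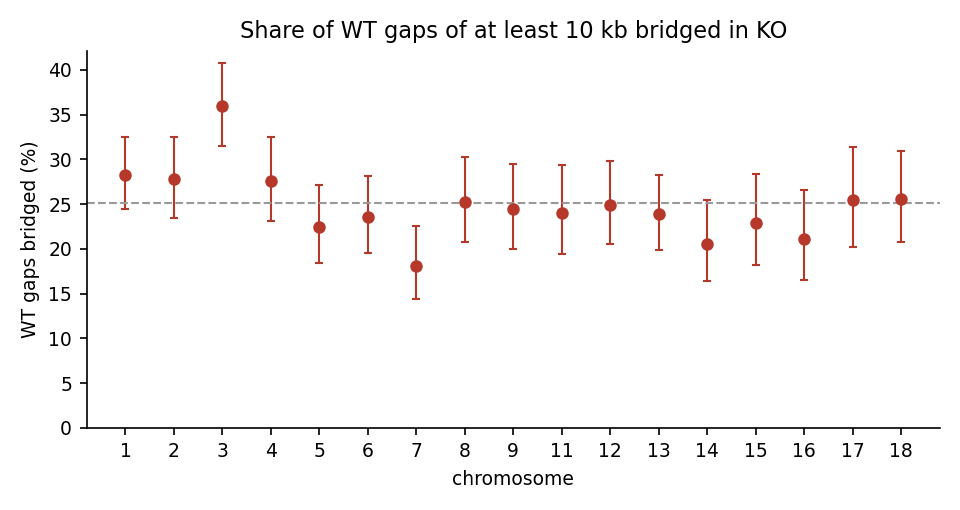
Share of WT gaps of at least 10 kb that were bridged in KO on each autosome (points, percent) with 95% Wilson intervals (bars, counting error only). The dashed line marks 25.1% over all 17, with chromosome 3 at 36.0% and chromosome 7 at 18.1%.

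The KO LADs that did the bridging were long. There were 1137 of them, 8.38% of the 13572 KO LADs on these autosomes, with a median length of 136.4 kb (quartiles 79.0 and 250.2 kb) against 34.3 kb for the other KO LADs. A long LAD has more room to span a gap, so this difference follows in part from the rule. Most of their sequence had been in a LAD before: 83.3% of their bases lay in WT LADs and 12.3% in bridged gaps. Just 1 gap was bridged by 928 of them and more than 1 by 209, and these 209 held 34.5% of all bridged gaps. At least 3 WT LADs were joined into one in 304 cases, and the largest number was 8.

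Most outer ends of these KO LADs fell short of the WT ones. Of 2274 outer borders, 73.0% ended inside a WT LAD, 25.2% reached past the WT LAD and 1.89% fell on a WT border. For 714 bridged gaps (50.4%) at least 1 of the neighboring WT LADs was itself opened somewhere in the KO, and for 214 both were. Of the 2430 WT LADs beside a bridged gap, 32.8% carried such an opening, against 22.0% of the other 4260 WT LADs. Those beside a bridged gap were longer, with medians of 59.6 and 32.5 kb. By length the shares were 5.98% beside a bridged gap and 1.79% elsewhere at 10 to 50 kb, 29.6% and 26.2% at 50 to 100 kb, 57.9% and 61.3% at 100 to 500 kb, and 91.6% and 89.5% above. The order thus turned between length classes, and apart from the shortest class the shares lay close together. The shorter of the 2 neighboring WT LADs had a median length of 31.3 kb and the longer one 108.6 kb. The KO LAD kept a median of 19 kb of WT LAD on its smaller side. For 286 bridged gaps (20.2%) this smaller side was under 10 kb, for 46 it was under 1 kb, and the smallest was 13 bp, so a part of the list rests on short overlaps.

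The KO LAD on chromosome 7 (chr7:116028513-116653961, 625.4 kb) joined 8 WT LADs, the most of any, and held 6 bridged gaps. A further gap between these WT LADs was under 10 kb and not counted. *Eif3f*, a subunit of translation initiation factor eIF3, lay wholly within the first gap of 40.2 kb. Gaps further along held 10 of the 12 exons of *Tub*, a gene of neuronal signaling, and the starts of *Lmo1*, a LIM-only transcription cofactor, and of the kinase gene *Stk33*. Of the 20 exons of *Trim66*, 18 fell in the last 2 gaps, which were 25 and 16.5 kb long. Another KO LAD with 6 bridged gaps, on chromosome 1 (chr1:54500110-54880946, 380.8 kb), ran over *Pgap1*, which remodels GPI anchors, with 2 gaps and over *Ankrd44* with 3. One more, on chromosome 6 (chr6:23409056-23986551, 577.5 kb), held 5 bridged gaps, 4 of them in *Cadps2*, a gene of vesicle release, and *Rnf133* lay wholly in one. The 3 longest KO LADs with a bridged gap measured 1705, 1442 and 1437.5 kb and were at least 96.9% WT LAD, each closing 1 gap of 10.6 to 12.6 kb. Only the last of these gaps touched a protein-coding gene, *Fam110b*.

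**Figure D3:**
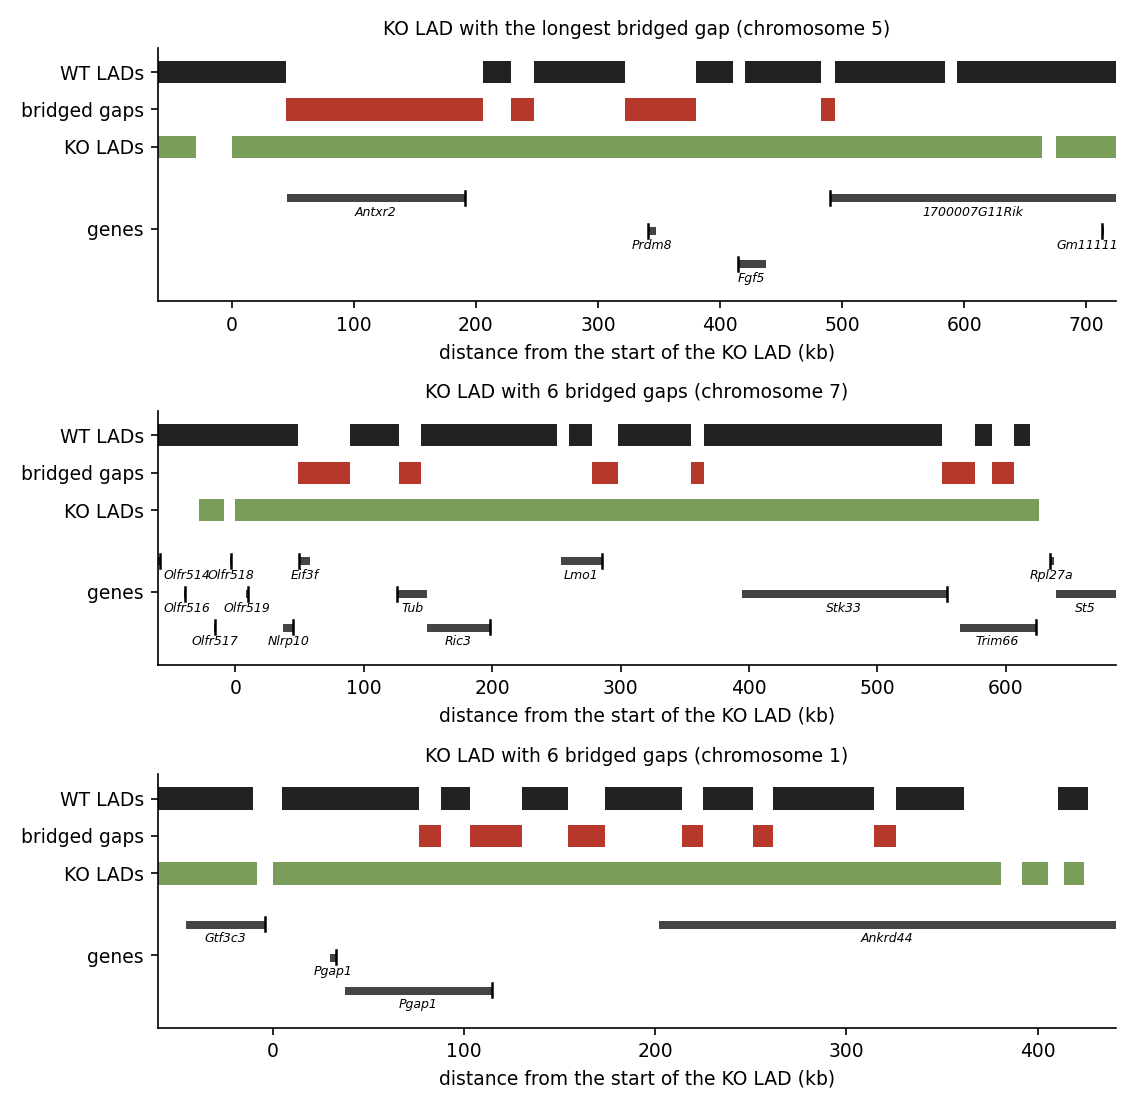
Maps of 3 KO LADs, with the distance in kb from the start of each on the x axis, WT LADs in black, bridged gaps in red, KO LADs in green and protein-coding genes in gray with a tick at the start of transcription. The upper map shows the 161.7 kb gap filled by Antxr2, and the others show KO LADs with 6 bridged gaps each.

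Bridged gaps held far more transcription starts for their length than the LADs around them. A protein-coding transcription start lay in 468 bridged gaps, or 33% (30.6 to 35.5), and 857 touched a protein-coding gene, or 60.5% (57.9 to 63). The much longer neighboring WT LADs touched a gene about as often (60.1%) and held a start in 23.3% of cases. Starts were found at 19.7 per Mb, against 2.59 per Mb in the neighboring WT LADs, 2.60 per Mb in the 4199 stretches opened inside WT LADs and 8.61 per Mb over the 17 autosomes. Density in bridged gaps was the higher one on 17 of 17 chromosomes against both. WT gaps that no KO LAD touched had 7.90 starts per Mb, also lower on 17 of 17 chromosomes, though 28.8% of their bases are unsequenced in the assembly while no bridged gap holds an unsequenced base. Without regions that hold unsequenced bases the value for uncovered gaps was 10.7 per Mb, lower on 16 of 17 chromosomes. These are counts over regions of 1 library pair per genotype, regions are not replicates, and the chromosome counts are given as a description with no test.

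The order was the same among gaps of like, short length. Between 10 and 30 kb, 1213 bridged gaps had 22.3 starts per Mb, 942 partly covered gaps had 9.93 and 605 uncovered gaps had 7.57, with bridged gaps higher on 17 of 17 chromosomes in both comparisons. Values for bridged gaps were 21.9 per Mb at 10 to 15 kb, 24.7 at 15 to 20 kb, 21.2 at 20 to 30 kb and 16 at 30 to 50 kb. Uncovered gaps of the same classes had 9.66, 7.12, 5.68 and 7.14 per Mb. From 50 to 100 kb the 47 bridged gaps, at 11.6 per Mb, no longer stood above the 625 partly covered gaps at 12.1 per Mb. Over all lengths, where the long gene-rich gaps count most, partly covered gaps had 16 starts per Mb and 53.4% of them held a start. Also over all lengths, KO-only DRs at the edge of a KO LAD had 13.7 per Mb and those that formed a KO LAD of their own had 12.8. Both were lower than bridged gaps, on 13 and 15 of 17 chromosomes. These 2 classes were longer, with medians of 19.8 and 18.3 kb against 14.8 kb, and were not matched by length.

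**Figure D4:**
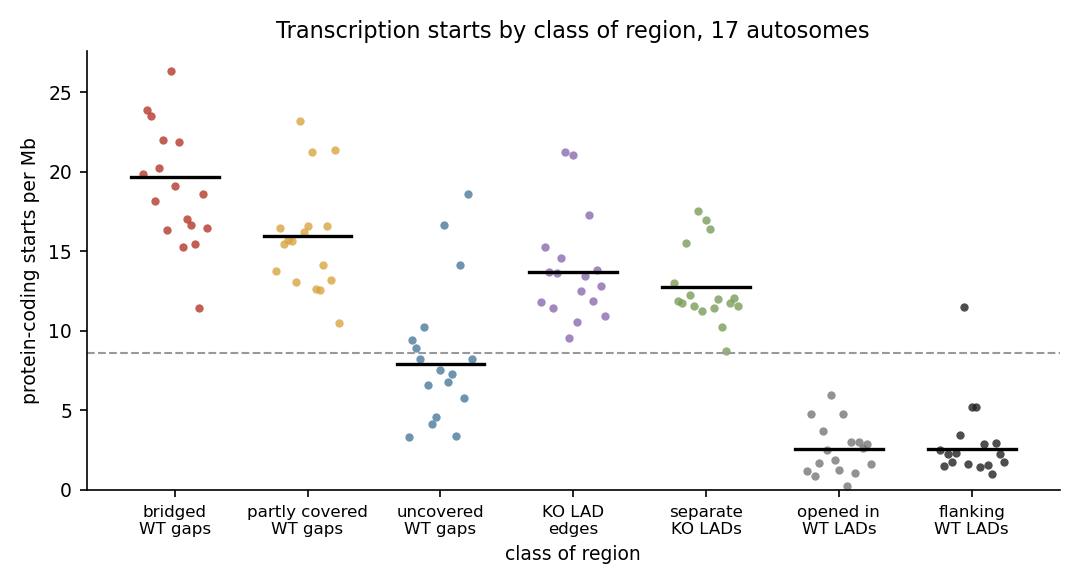
Protein-coding transcription starts per Mb (y axis) in 7 classes of region, with a point for each of 17 autosomes and a black line for the value over all of them. Bridged gaps lie at 19.7 per Mb, WT LADs beside them at 2.59 and the 17 autosomes as a whole at 8.61 (dashed line).

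Starts were concentrated in the middle of the bridged gaps. In the 1363 members under 50 kb, the density was 30.2 per Mb in the central 20% of the gap and 16.5 and 12 per Mb in the outermost 20% at each side, and it was 4.89 and 3.26 per Mb just beyond the borders. Of all 559 starts, 401 (71.7%) fell in the middle 60% of their gap. Their median distance to the nearer border was 5.20 kb, and 23 lay within 1 kb of a border. In 740 uncovered gaps of the same lengths the density stayed between 5.30 and 9.28 per Mb throughout the gap, and in 4085 stretches opened inside WT LADs between 1.67 and 3.06. A single start was held by 398 bridged gaps and more than 1 by 70, and in 21 gaps a pair of genes started back to back within 1 kb.

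**Figure D5:**
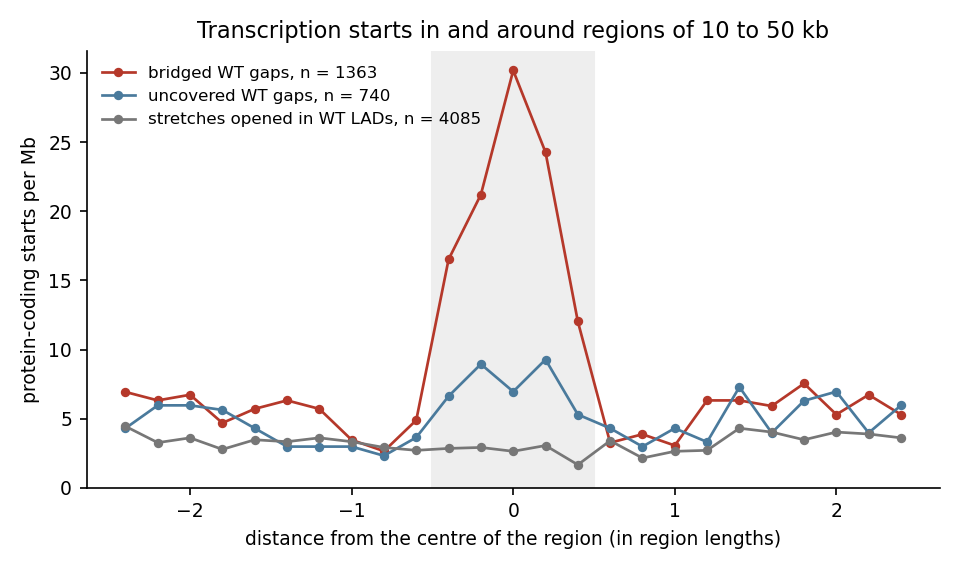
Protein-coding transcription starts per Mb (y axis) by distance from the centre of the region in region lengths (x axis, gray band = the region itself) for regions of 10 to 50 kb. The density in bridged gaps reaches 30.2 per Mb at the centre, while uncovered gaps stay at or under 9.28 and stretches opened in WT LADs at or under 3.06 within the region.

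Most of the starts in bridged gaps were of the CpG-rich kind, the promoter type common to housekeeping and developmental genes. By a rule of at least 50% GC and an observed-to-expected CpG ratio of at least 0.6 in 500 bases around the start, 359 of 559 were CpG-rich (64.2%), against 12.9% of the starts in the neighboring WT LADs, 1.46% of those in stretches opened in WT LADs (3 of 206) and 48.3% of all. The share was 64.7% for starts in KO-only DRs at LAD edges, 64.8% in separate KO LADs and 59.8% in partly covered gaps, so it did not mark bridged gaps off from these. The sequence as a whole held 10.4 CpG per kb in bridged gaps, 6.25 in the neighboring WT LADs and 8.47 over the autosomes. Partly covered gaps held 11.3 and separate KO LADs 10.6, and bridged gaps were lower than partly covered gaps on 14 of 17 chromosomes. GC content was 42.4% against 39.3% in the neighboring WT LADs, higher on 17 of 17 chromosomes. It was below the 45.0% of partly covered gaps and the 43.8% of separate KO LADs on 17 of 17. Among gaps of 10 to 30 kb the order against partly covered gaps was another: GC content was 42.6% in bridged and 42.5% in partly covered gaps, higher in bridged gaps on 9 of 17 chromosomes, and CpG stood at 10.7 against 8.99 per kb, higher on 16 of 17. Uncovered gaps of these lengths had 42.5% GC and 8.23 CpG per kb, and bridged gaps were higher on 11 and on 17 of 17 chromosomes. A bridged gap held a median of 32 complete GATC sites, and 35 members held fewer than 15. A gap of 10.9 kb on chromosome 15 (chr15:19637775-19648717) held 1 site and rests on the fewest fragments. Bridged gaps had 2.15 sites per kb, the lowest density of the classes compared, against 2.30 in uncovered gaps, 2.39 in partly covered gaps and 2.54 in the neighboring WT LADs, and they were lower than uncovered gaps on 16 of 17 chromosomes. By length the densities of bridged and uncovered gaps lay closer, with 2.02 and 1.99 per kb at 10 to 15 kb, 2.07 and 2.14 at 15 to 20 kb, 2.21 and 2.23 at 20 to 30 kb, 2.24 and 2.27 at 30 to 50 kb and 2.30 and 2.34 at 50 to 100 kb. The part of site density in the calls was not tested.

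In all, 833 of 19649 protein-coding genes touched a bridged gap by at least 1 base, which is 4.24% of the genes on these autosomes, and 559 had their start in one, which is 2.84%. They were 21.6% of the 3848 genes that touched any KO-only DR. Of the 833 genes, 280 (33.6%) also overlapped a WT-only DR, a stretch in a LAD in WT and not in KO. Many of the 833 were long genes crossed at a small part of their length. The median span was 69.3 kb, against 15.6 kb for all genes, and the gap took a median of 19.2% of it. Less than 10% of the span was covered in 273 genes, at least 50% in 252, and 171 lay wholly in a gap. Of the 559 genes that started in a gap, 388 (69.4%) ran out of it into a WT LAD. Over their whole span, 353 of the 559 (63.1%) lay in KO LADs. These include the 171 genes wholly in a gap, which lie in a KO LAD by the rule, as does each of the 559 starts. Not all bridged gaps had a gene nearby: 560 (39.5%) touched none, and their median distance to the nearest start was 104 kb. Another 354 lay within a single gene, 184 of them in introns alone.

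*Antxr2* filled the longest bridged gap (chr5:98312966-98474672, 161.7 kb). All 17 exons of its 146.3 kb lay in the gap, between a WT LAD of 759.6 kb on the left and one of 22.9 kb on the right, and 100% of the gene lay in KO LAD against 0% in WT LAD. The same KO LAD bridged 3 more gaps, one of 58.7 kb with the whole of *Prdm8*, which was named after its values had been seen. *Arnt2* started in the second longest (chr7:91548618-91691596, 143.0 kb), but only 6.02% of its span lay there. The next, on chromosome 3 (chr3:58803590-58927570, 124.0 kb), took in the start of *Med12l*, a relative of a Mediator subunit, the G protein-coupled receptor gene *Gpr171* as a whole and 56.4% of *P2ry14*, a receptor for UDP-sugars. *Oxr1*, an oxidation resistance gene, was crossed by the fourth (chr15:41401848-41521358, 119.5 kb) without its start.

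The fifth (chr3:127241650-127351102, 109.5 kb) held the starts of *Larp7*, an RNA-binding protein of transcription elongation, of *4930422G04Rik* and of *Neurog2*, a proneural transcription factor, beside the microRNA cluster printed above. *Cep135*, a centriole protein, and *Scyl3* lay wholly in the sixth and seventh. *Efna5*, the ligand ephrin-A5, was crossed by 3 bridged gaps over 46.6% of its span. The ninth (chr13:5332888-5426914, 94.0 kb) touched no protein-coding gene. *Abcb1a*, a drug efflux pump, filled much of the tenth, with 24 of 28 exons and 88.6% of its 88.5 kb. Further genes wholly in a gap included *Zdhhc21* (61.2 kb), *Dnajc10*, a disulfide reductase of the endoplasmic reticulum (38.6 kb), *Tmx3* (33.1 kb), *Tcfap2b* (29.8 kb) and the metalloreductase gene *Steap2* (29.7 kb).

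Very long genes were crossed again and again. *Immp2l*, a subunit of the inner membrane peptidase of mitochondria, spans 1306 kb and touched 6 bridged gaps with 7.67% of its span, while 132.1 kb of it lay in WT-only DRs, which were in a LAD in WT alone. *Pard3b*, a cell polarity gene, touched 5, and *Reln*, *Cadps2* and *Nbea* touched 4 each. *Pard3b* had 81.1 kb in bridged gaps and 135.9 kb in WT-only DRs. The share of its span in LADs was 77.7% in WT and 76.9% in KO. That share was higher in KO than in WT for *Immp2l*, *Reln*, *Cadps2* and *Nbea*. In *Reln*, a secreted matrix protein that marks stellate cells in liver, 65.2 kb were bridged, with the start and 15 of 64 exons. In all, 125 genes touched more than 1 bridged gap, so that gaps within such a gene are not independent of each other.

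Lists of hepatocyte genes lay on either side of the 4.24% of all genes that touched a bridged gap, with shares from 0% to 6.67%. None of 22 liver transcription factors, 26 genes of cholesterol synthesis and sterol regulation, 21 of insulin signaling and glucose output and 31 of fatty acid and triglyceride metabolism touched one. Most of these genes (22, 19, 18 and 26 of them) touched no LAD of either genotype. Of 31 genes of plasma carrier proteins and apolipoproteins, 2 touched a bridged gap (6.45%), *Apcs* and *Crp*, both wholly, in separate gaps of 17.6 and 16.2 kb on chromosome 1. Of 30 coagulation and complement genes, 2 did (6.67%), and *Pros1*, which codes for the anticoagulant protein S, had 18.2% of its span in a gap and not its start. Of 16 genes of bile acid synthesis and transport, *Cyp7b1*, an oxysterol hydroxylase, had its start in a gap with 3.23% of its 171.4 kb. Of 58 cytochrome P450 genes of families 1 to 4, *Cyp4b1* (40.7% of the span) and *Cyp2j6* (8.78%) were touched, both with the start. The share of the span in any LAD fell from WT to KO in *Cyp7b1* (85.5% to 82.9%) and *Cyp2j6* (68.7% to 66.3%). It rose in *Apcs*, *Crp*, *Pros1* and *Cyp4b1*.

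Of 39 cell cycle genes, the kinetochore motor gene *Cenpe* was touched (22.6%, start included). None of 15 nuclear lamina and envelope genes, 22 genes of activin, BMP and TGF-beta receptors and Smads, 20 circadian clock genes, 20 UDP glucuronosyltransferases, 67 clustered histone genes and 40 Hox genes was touched. Among genes that mark other liver cells, 0 of 9 Kupffer cell, 1 of 8 stellate cell (*Reln*), 1 of 7 sinusoidal endothelial (*Bmp2*, 46.2%) and 0 of 10 cholangiocyte markers touched a bridged gap. A list of 13 genes repositioned to the periphery and lower in expression, which was chosen on these samples and is not independent, had 1 member here, *Apcs*.

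Long neuronal adhesion and synapse genes, 94.3% of which lay for the most part in WT LADs, were touched in 7 of 35 cases (20.0%) but with a start in 1, *Grin2a*, a glutamate receptor subunit. The median share of the span was 2.14%, and the largest was that of *Robo1*, an axon guidance receptor, with 15.9% in 3 gaps. *Magi2* (2.14%) and *Cdh18* (2.41%) were crossed without their starts. From WT to KO the share of the whole span in LADs fell in *Grin2a* (87.0% to 52.2%), *Magi2* (97.9% to 93.1%) and *Cdh18* (95.2% to 92.8%). In *Robo1* it rose, from 53.6% to 72.5%. Olfactory and vomeronasal receptor genes lay in WT LADs to much the same degree (93.3% and 93.8%), and 5 of 973 and 4 of 322 touched a bridged gap, or 0.514% and 1.24%. Most receptor genes are far shorter than the neuronal genes, and a longer gene is more likely to touch a gap by at least 1 base, so these shares are not comparable between the lists. *Olfr94*, *Olfr95* and *Olfr986* lay wholly in a gap, as did *Vmn1r3*, *Vmn1r45* and *Vmn1r238*. Solute carriers (12 of 318, 3.77%) and zinc finger proteins (14 of 354, 3.95%) were close to the share over all genes. Examples were *Slc4a7*, a bicarbonate transporter (26.2%), *Slc25a31* (21.8%), *Slc25a40* (21.3%), *Slco4c1* (21.0%), *Zfp161* (100%) and *Zfp330* (97.5%). The share of the span in any LAD nevertheless fell from WT to KO in *Slc4a7* (73.8% to 56.9%) and *Slco4c1* (79.0% to 69.2%). It rose to 100% in *Slc25a31*, *Slc25a40*, *Zfp161* and *Zfp330*. Of 131 genes taken by their symbols as cytosolic ribosomal protein genes, a list not checked for retrocopies or paralogs, 1 was touched. This was *Rpl22l1*, which lay wholly in a gap of 11.3 kb.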

How the data were processed

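LaminB1-DamID was measured in hepatocytes of WT and *Tm7sf2* KO mice, with 1 pooled pair of LaminB1-Dam and Dam libraries per genotype. The submitters' processing notes name BWA, limma and the build mm9. The authors called LADs on the log2 ratio of both libraries over *DpnI* fragments with DNAcopy at its default parameters, and deposited 2 LAD lists and 2 DR lists as intervals with no signal. No DR is shorter than 10 kb. Subtracting one LAD list from the other with this minimum returned 8208 of 8208 KO-only and 7787 of 7787 WT-only DRs with identical borders.

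Positions are 1-based in mm9, with sequence from NCBIM37, the same assembly, and genes from GENCODE M1. A gene is its annotated span, its start is the 5′ end of the span, and exons are those of the coding transcript with the most exonic bases. Python 3.11.15, numpy 2.4.6, scipy 1.17.1, pysam 0.24.0 and matplotlib 3.10.9 were used. Tested on simulated data, the rule found 600 of 600 planted gaps. Of 26 gene lists, symbols missing from the annotation were matched through RefSeq synonyms (3 genes). The members, gene lists and alternatives were chosen with earlier results of these data known.

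Genes were named when they overlapped the 10 longest bridged gaps, were among the 10 longest wholly in a gap, led a list by share of the span (up to 4 genes), touched the most gaps (5 genes), or lay in bridged gaps of the 3 KO LADs with the most gaps or of the 3 longest. The values of 1 gene that the rule took are not reported here. With no replicates no test was run. A share was taken as unchanged within its 95% Wilson interval, a number or size within a factor of 1.5, and GC content within its SD over chromosomes. No other per-sample values were used.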

Additional observations from a re-analysis of the deposited data

How the results depend on the processing

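Of 61 values recomputed under another setting, 41 kept within their interval or a factor of 1.5, among them every value of GC content and every value with chromosomes 10, 19, X and Y added. With a minimum gap of 20 kb the number of bridged gaps was 458, the bases 15.6 Mb, the median length 28.5 kb, the share of gaps bridged 12.7%, the genes touched 381, the share touching a gene 70.3% and the share holding a start 45.4%, since fewer and longer gaps were counted. With no minimum, which added only gaps of 8 to 10 kb because the WT LADs left no shorter ones, 2017 gaps were bridged. The share bridged was then 30.2%, the share touching a gene 55.2% and the share holding a start 26.8%. Where each neighboring WT LAD had to reach 20 kb the bases were 18.1 Mb, the share bridged 17.2% and the share holding a start 35.8%. Requiring 10 kb of WT LAD inside the KO LAD on both sides gave 20.1% bridged, 63.6% touching a gene and 36.2% holding a start. Joining KO LADs across gaps of up to 10 kb gave 28.5% bridged. Dropping LADs under 20 kb gave 37.0% holding a start. With genes of every biotype 66.3% touched a gene and 38.7% held a start.

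The ratio of starts per Mb in bridged over partly covered gaps was 1.23 over all lengths with every region kept. Without regions that hold unsequenced bases, a setting added after the data had been seen, the densities over all lengths were 19.7 and 15.7 per Mb. For gaps of 10 to 30 kb the ratio was 2.24 with or without such regions. The ratio over uncovered gaps ranged from 1.85 to 2.94 in these settings, and over stretches opened in WT LADs from 7.55 to 8.02. No paired analysis was possible because each genotype has 1 library pair. The lists hold no depth and no signal, so the strength of contact in a bridged gap could not be described.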
